A study of Lotus japonicus with 14 samples.

Results

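The 122 gene models described here stood at root level in nodule primordia of the legume Lotus japonicus at 5 days after inoculation (dai) and had lost most of that level by 10 dai. They were chosen from 38476 gene models by their own values, given as CPM, read counts scaled to library size with TMM factors. A member had a mean of at least 10 CPM over 2 uninoculated roots, and its mean over the 4 libraries of 5 dai lay within 2-fold of that root mean. Its mean over 3 libraries of 10 dai was at most 25% of both the root mean and the 5 dai mean. The first 2 criteria were met by 10503 gene models, so the members made up 1.16% of them. The other 10381, which met both criteria and were not lost at 10 dai, are called the other root-level gene models below.

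The libraries came from wild type plants of accession MG20 (Miyakojima) and from the mutant apn1, which the labels call Fix-. The term is used for nodules that do not fix nitrogen, and whether it holds for apn1 with each strain was not tested here. Plants grew in vermiculite without added nitrogen, and Mesorhizobium loti, strain MAFF303099 or TONO, was added 7 days after planting. Each genotype gave 1 library of uninoculated root, with no stated age, and 1 library of excised primordia or young nodules for each strain at 5, 7 and 10 dai. That makes 14 conditions with 1 library each, and replicate error cannot be computed for a single value. The number of plants pooled per library is not given in the sources used here. Whether wild type and mutant plants differed beyond the mutated gene is not given in the labels, and that gene was not analysed here.

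A nodule begins when rhizobia are recognised at the root surface and cells of the root cortex divide again to form a primordium. The primordium grows into an organ with a central tissue filled with bacteria, surrounded by uninfected cells and vascular strands. A nodule is therefore built from root cells, and genes used by a root can either be carried into the organ or be turned down as it matures. In whole tissue, fewer cells of a type and less RNA per cell cannot be told apart.

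The files give identifiers with no gene names, and 0 of the 38476 identifiers matched the gene table of the assembly LjGifu_v1.2. No roles are therefore given, and the tissue could not be checked against named markers. An identifier that starts with chr names the chromosome and contig on which the authors' annotation places the model, followed by a model number. Identifiers that start with LjSGA carry no chromosome. Total counts ran from 52272951 to 54816945 in roots, from 48180653 to 58395305 at 5 and 7 dai, and from 33981124 to 37261815 at 10 dai, so day and depth changed together. No member was at 0 in any library, and the lowest count of a member was 2, in wild type with TONO at 10 dai. Gene models under 1 CPM in both roots, 10327 in all, held 0.242% and 0.253% of root counts and 1.498% to 2.66% at 5 dai.

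The members were genes of ordinary abundance in roots. Their root means ran from 10.2 to 228 CPM with a median of 24.2 CPM, against a median of 26.8 CPM for the other root-level gene models. At 5 dai 55 members stood above and 67 below their root mean, and the median ratio of 5 dai to root was 0.978. Together they held 0.526% (wild type) and 0.431% (apn1) of all root counts. At 5 dai the share was 0.520% to 0.571%, and at 7 dai 0.237% to 0.272%. At 10 dai it was 0.0668% in wild type with MAFF303099, 0.0559% in wild type with TONO and 0.0675% in apn1 with MAFF303099. In apn1 with TONO at 10 dai, the library that the choice of members did not use, the share was 0.144%.

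**Figure D1:**
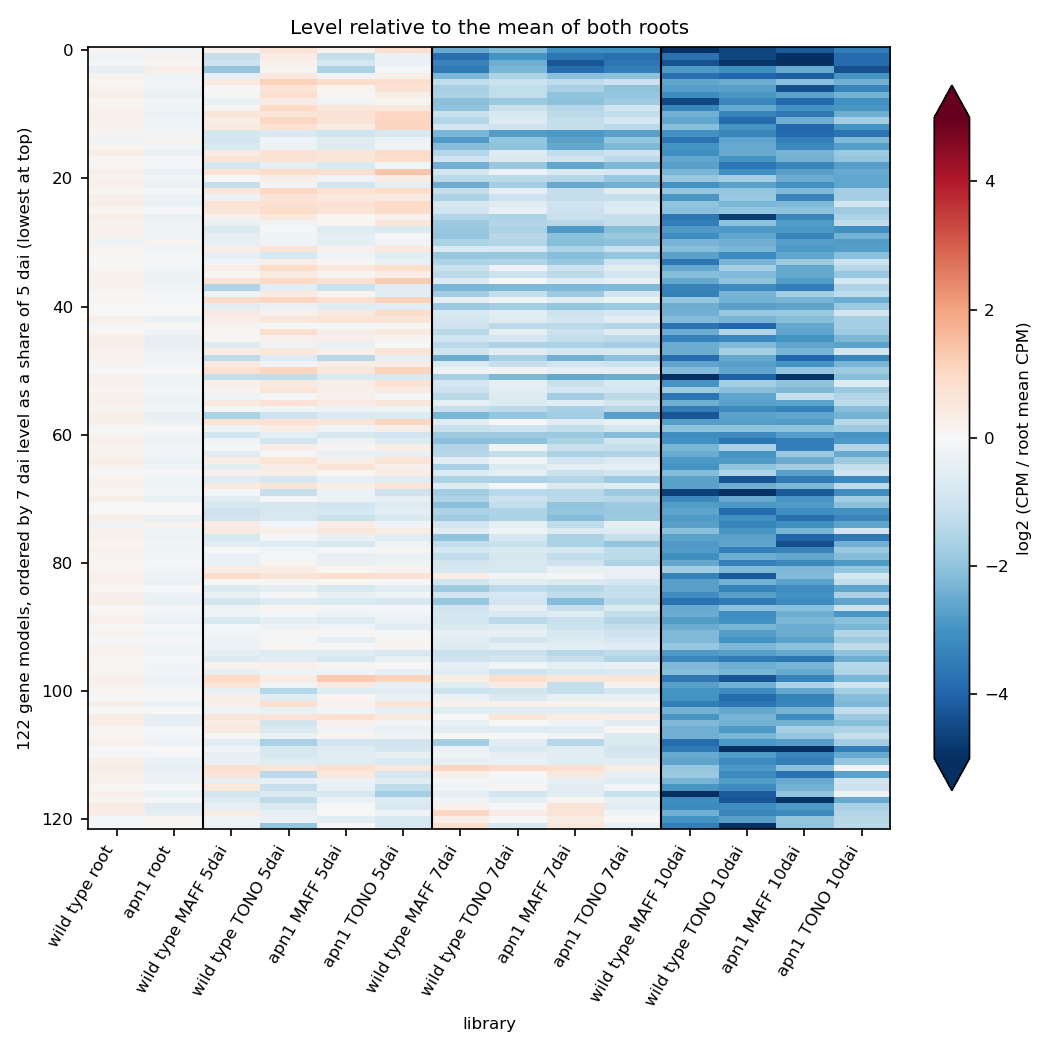
Log2 of CPM over the mean CPM of both roots for the 122 gene models (lines, ordered by the 7 dai level as a share of the 5 dai level, lowest at the top) in the 14 libraries (columns, grouped as roots, 5, 7 and 10 dai; MAFF stands for MAFF303099). Colours end at 5 on either side of 0, and the 3 chosen libraries of 10 dai are the darkest blue, with apn1 TONO 10 dai paler for 106 members than wild type TONO 10 dai. Of the other root-level gene models 46.4% were higher in apn1 TONO 10 dai. The rule held the mean of the 3 chosen libraries low, which favours this order in the members.

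The gene model with the highest root level, chr1.CM0269.190.r2.m on chromosome 1, shows the common course. Roots of wild type and apn1 had 265 and 190.45 CPM of it. At 5 dai it had 309 and 371 CPM in wild type with MAFF303099 and TONO, and 302 and 346 CPM in apn1 with the same strains. At 7 dai the values were 167, 142.5, 154 and 119.6 CPM in that order. All 4 libraries of 7 dai lay below all 4 of 5 dai. At 10 dai it had 42.1, 34.9 and 35.2 CPM in the 3 libraries used for the choice and 92.4 CPM in apn1 with TONO, above the other three. LjSGA_092795.1 was next in root level, at 227 CPM in wild type and 219 CPM in apn1. It had 307, 262, 304 and 427 CPM at 5 dai, 132, 154, 108 and 126 CPM at 7 dai, and 42.3, 60.2 and 62.5 CPM at 10 dai, in the same order of libraries. In apn1 with TONO at 10 dai it had 116 CPM, inside the range of its 7 dai values.

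How much the members lost by 10 dai is fixed in part by the rule and is given without a test. The ratio of the 5 dai mean to the mean of the 3 libraries of 10 dai ran from 4.02 to 38.8 with a median of 6.06. It was 8 or more for 37 members and 16 or more for 7. In each member all 3 of these libraries lay below all 4 libraries of 5 dai, an order that the rule favours. It was not counted for the other gene models. The largest ratio was that of chr2.CM0021.3390.r2.m on chromosome 2. Its roots had 13.9 and 11.9 CPM and its 5 dai libraries 15.0, 20.4, 14.8 and 23.1 CPM. At 10 dai 7, 14 and 22 counts were left, or 0.205, 0.517 and 0.694 CPM, so counting error is large at this end. The next ratio, 25.6, was that of chr5.CM0456.530.r2.m on chromosome 5. It had 27.9 and 19.2 CPM in roots and 47.1, 31.7, 58.1 and 50.4 CPM at 5 dai, and 1.99, 1.18 and 2.30 CPM at 10 dai.

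Members also sat close to the limit. The last ones inside were LjSGA_109732.1.1 at 24.9% and chr4.CM0131.250.r2.d at 24.84% of the lower of the root and 5 dai means. Just outside were chr5.CM0048.160.r2.m at 25.02% and LjSGA_010591.1 at 25.04%. Between 20% and 25% there were 52 members, and between 25% and 30% there were 54 gene models that just missed. The limit therefore cuts through a continuous range.

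The 7 dai libraries had no part in the choice and lay between the other days. Over the members, the median of the 7 dai mean was 46.2% of the 5 dai mean, with quartiles of 35.8% and 65.6%, against 99.0% for the other root-level gene models. By library the median was 44.7% in wild type with MAFF303099, 52.8% in wild type with TONO, 40.9% in apn1 with MAFF303099 and 43.8% in apn1 with TONO. For 98 of 122 members all 4 libraries of 7 dai were below all 4 of 5 dai, and for 113 they were all above the 3 chosen libraries of 10 dai. Neither count was made for the other gene models, and the rule held the mean of those 3 libraries low. Since the 5 dai values took part in the choice, these shares and counts carry no test. In pairs of 1 library against 1, 67 members were at least 2-fold lower at 7 than at 5 dai in wild type with MAFF303099, where 5.29% of all 32777 gene models with a mean count of at least 10 were. In wild type with TONO 59 members were, against 7.39% of all. In apn1 the numbers were 77 members with MAFF303099, against 5.66% of all, and 76 with TONO, against 6.25%.

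**Figure D2:**
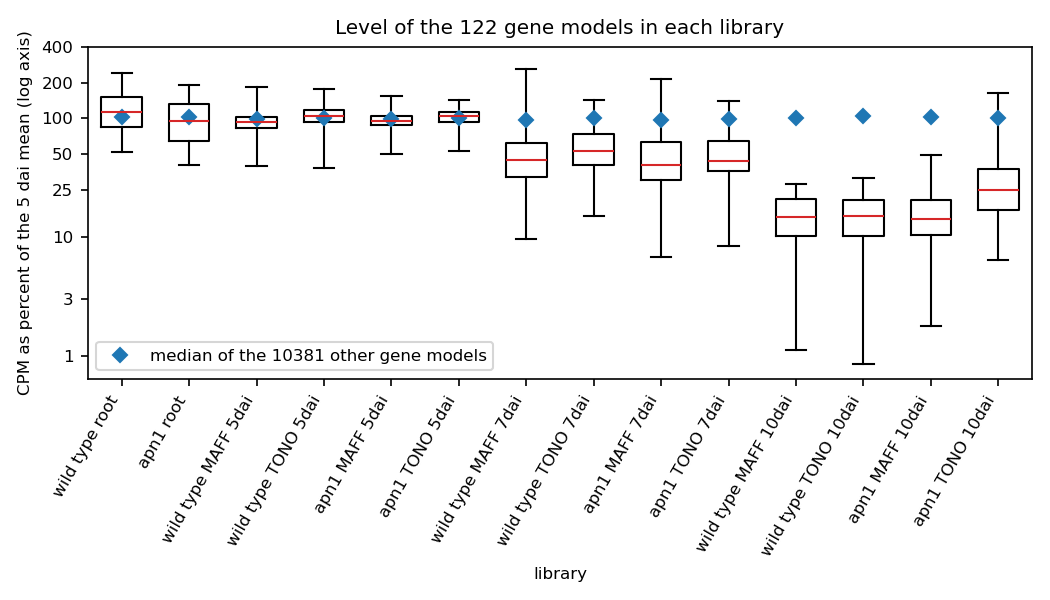
CPM as a percent of the 5 dai mean of each gene model (log axis) in the 14 libraries; boxes show the quartiles and median of the 122 gene models, whiskers the lowest and highest, and diamonds the median of the 10381 other root-level gene models. The members' medians stand at 40.9% to 52.8% in the 4 libraries of 7 dai, at 14.3% to 15.1% in the 3 chosen libraries of 10 dai and at 24.9% in apn1 TONO 10 dai.

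Members differed in when their level was lost. At 7 dai 7 of them were at or below 25% of their 5 dai mean, 63 were between 25% and 50%, 40 were between 50% and 100%, and 12 were above 100%. Of the 122, 70 were thus at or below 50%, or 57.4%, where 1% of the other root-level gene models were.

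The earliest losses were those of chr2.CM0021.3390.r2.m and chr2.CM0323.400.r2.d, both on chromosome 2. The first had 2.25, 2.78, 1.53 and 1.56 CPM at 7 dai, 11.1% of its 5 dai mean. The second had 26.7, 78.4, 26.0 and 47.6 CPM at 5 dai and 4.27, 7.47, 4.85 and 4.42 CPM at 7 dai, or 11.8%. Its roots had 51.6 and 67.8 CPM. For both, the 4 libraries of 7 dai lay below all 4 of 5 dai.

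At the other end, 12 members stood higher at 7 dai than at 5 dai and were lost only between 7 and 10 dai. LjSGA_040777.1 had the highest ratio, 169%. With MAFF303099 it had 8.59 CPM in wild type and 10.8 CPM in apn1 at 5 dai, and 18.3 and 15.3 CPM at 7 dai. With TONO it had 2.72 and 6.07 CPM at 5 dai, and 5.77 and 8.41 CPM at 7 dai. At 10 dai it had 0.997, 0.332 and 2.62 CPM in the chosen libraries and 4.16 CPM in apn1 with TONO. In each of the 4 series of libraries its 7 dai value was the highest of the 3 days. For chr4.CM0131.250.r2.d on chromosome 4 the ratio was 159.5%. Its level was 10.3, 9.25, 8.06 and 6.89 CPM at 5 dai and 15.0, 12.2, 15.7 and 12.1 CPM at 7 dai, so that all 4 libraries of 7 dai stood above those of 5 dai. It had 1.53, 1.84 and 3.06 CPM in the chosen libraries of 10 dai and 4.57 CPM in apn1 with TONO.

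The contig with most members, chr4.CM0026 on chromosome 4, held 3 of them, numbered 120, 160 and 1010. Models 120 and 160 are both among these 12. Model 120 had 54.2, 30.8, 42.5 and 35.4 CPM at 5 dai, 85.9, 55.1, 64.6 and 35.6 CPM at 7 dai, and 7.89, 4.24, 4.575 and 14.9 CPM at 10 dai, with apn1 TONO last. Model 160 had 14.8, 11.9, 20.2 and 11.5 CPM at 5 dai, 22.6, 18.5, 31.2 and 13.3 CPM at 7 dai, and 2.14, 2.29, 2.68 and 6.42 CPM at 10 dai. Both were higher with MAFF303099 than with TONO in each genotype at 5 and 7 dai. Model 1010 took the common course, with 11.6, 11.5, 8.84 and 7.52 CPM at 7 dai, 65.6% of its 5 dai mean. Whether models 120 and 160 share reads is not known from the files.

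**Figure D3:**
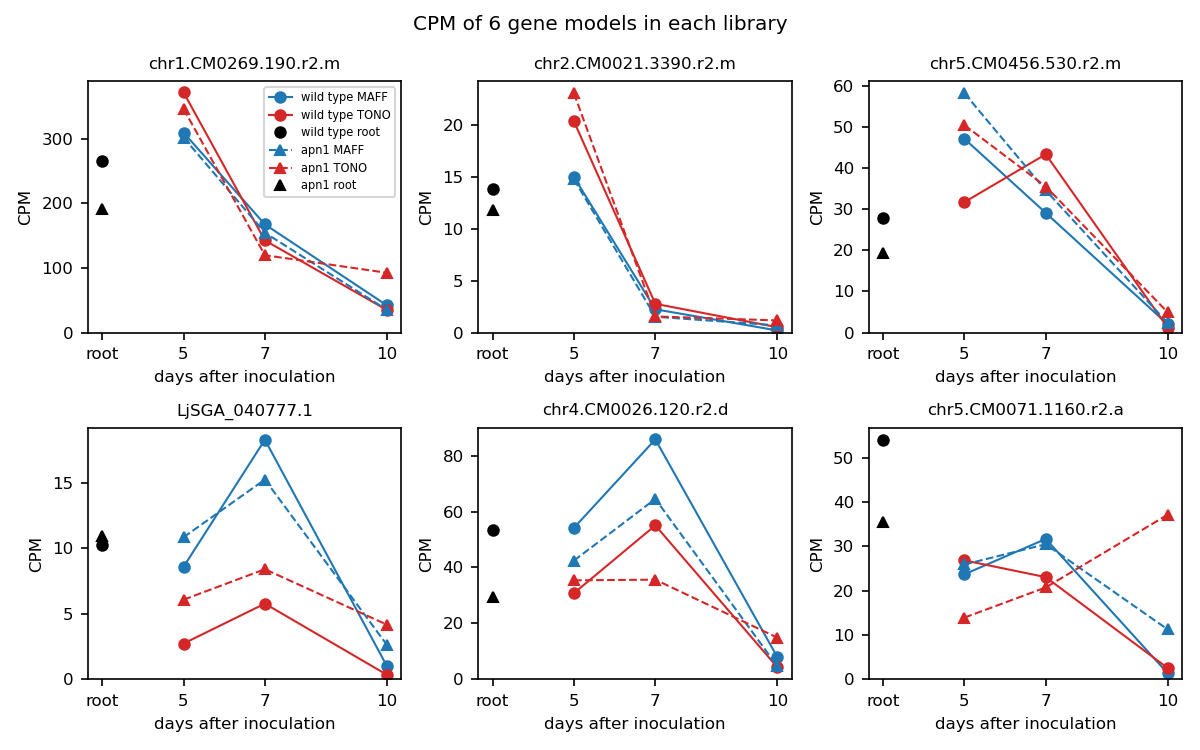
CPM of 6 gene models in roots (black) and at 5, 7 and 10 days after inoculation, with 1 point per library (circles and solid lines wild type, triangles and dashed lines apn1; blue MAFF303099, red TONO). In each panel the 10 dai values of the 3 chosen libraries lie below all values of 5 and 7 dai, and chr5.CM0071.1160.r2.a keeps 37.1 CPM in apn1 with TONO.

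The library of apn1 nodules with TONO at 10 dai took no part in the choice, and most members were low in it too, though less so. It was tested against the 4 libraries of 7 dai, which were not used in the choice either (edgeR quasi-likelihood over 32556 gene models, called at a Benjamini-Hochberg adjusted p under 0.05). Of the 122 members 46 fell and 0 rose, where 4.85% of all gene models tested were called lower, 3.96% higher and 8.82% in either direction. Unadjusted, 83 members, or 68.0%, had a p under 0.05, 1 of them higher, where 24.2% of all gene models did. Over all members the median log2 fold change was −0.95, against −0.02 for all gene models and 0.03 for the other root-level gene models, and 114 members had a value below 0. From 7 to 10 dai within apn1 and TONO, 1 library against 1, 4.10% of the members and 52.5% of the other root-level gene models were higher. Among the members called lower, log2 fold changes ran from −2.86 to −0.65. Each of these was below all 4 libraries of 7 dai, an order that a call in this test favours. Of all members 83.6% were below all 4, where 27.2% of the other root-level gene models were. Set against only the 2 apn1 libraries of 7 dai, the members' median log2 fold change was −0.811, against −0.015 for all gene models. With only the 2 TONO libraries of 7 dai it was −1.002, against −0.011. In that TONO setting the calls of members were mostly, but not only, lower.

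The spread in this test is that of the 7 dai libraries, so it includes genotype and strain, and the single 10 dai library is assumed to vary like them. With limma 28 members fell and 0 rose, where 2.83% of all gene models were called lower, and with DESeq2 66 fell and 0 rose, where 7.85% were.

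**Figure D4:**
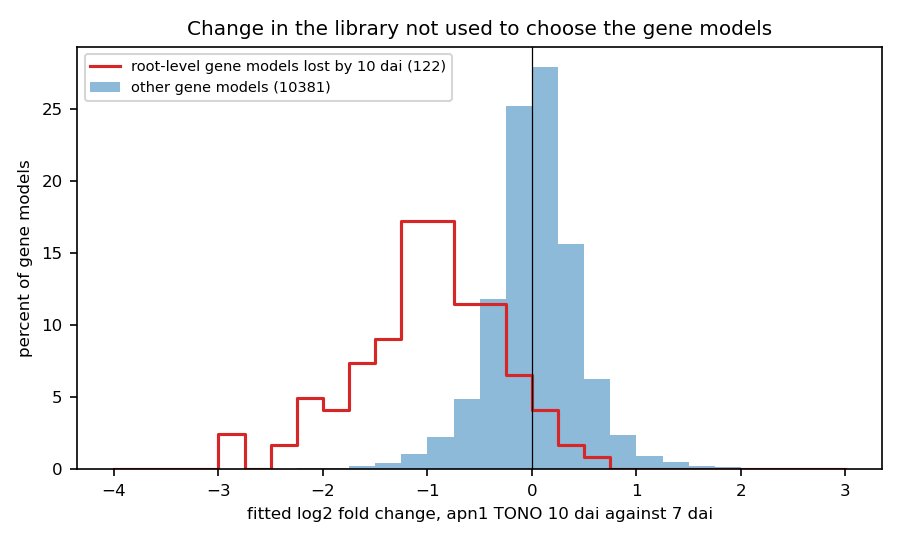
Share of gene models (percent) by fitted log2 fold change of apn1 TONO 10 dai against the 4 libraries of 7 dai, in steps of 0.25, for the 122 members (red line) and the 10381 other root-level gene models (blue bars). The members centre on −0.95 and the others on 0.03.

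The deepest fall in this test was that of chr5.CM0456.530.r2.m. It had 29.1, 43.3, 34.5 and 35.5 CPM at 7 dai and 4.89 CPM in apn1 with TONO at 10 dai (log2 change −2.86 ± 0.27 SE, edgeR adjusted p = 0.00114). At 7 dai it was still at or above its root level, and it was low in all 4 libraries of 10 dai. Next was chr1.LjT43D18.100.r2.d on chromosome 1, with 10.5, 7.56, 8.64 and 6.81 CPM at 7 dai and 1.17 CPM, or 40 counts, in apn1 with TONO at 10 dai (log2 change −2.84 ± 0.35 SE, edgeR adjusted p = 0.00276). In the chosen libraries of 10 dai it had 38, 2 and 7 counts. Over the alternatives tried, adjusted p-values ran from 1.31e-21 to 0.00672 for the first and from 1.18e-11 to 0.0209 for the second. Of the other models described above, chr4.CM0131.250.r2.d fell (log2 fold change −1.59, edgeR adjusted p = 0.00649), as did models 120 and 160 of chr4.CM0026 (−2.02 and −1.74, edgeR adjusted p = 0.0217 and 0.0374). The most abundant, chr1.CM0269.190.r2.m, did not pass (log2 fold change −0.66, edgeR adjusted p = 0.0965), nor did LjSGA_092795.1 (−0.16, edgeR adjusted p = 0.696).

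Set against 5 dai, apn1 nodules with TONO at 10 dai held a median of 24.9% of the members' 5 dai level, against 101.55% for the other root-level gene models. The medians in the 3 chosen libraries were 14.7% in wild type with MAFF303099, 15.1% in wild type with TONO and 14.3% in apn1 with MAFF303099. In apn1 with TONO 61 members were at or below 25% of their 5 dai mean, where 0.299% of the other root-level gene models were. At or below 50% were 111 members, against 4.12% of the others. In this library 91 members stood above all 3 chosen libraries, a count not made for the others. The median ratio to the mean of those 3 was 1.73, and 16 members were below that mean. Members had to be low in the 3 chosen libraries and not in this one, so these differences are a description. From 7 to 10 dai within apn1 and TONO, 1 library against 1, 47 members were at least 2-fold lower, where 7.08% of all gene models were. In the other three series, whose 10 dai libraries were used in the choice, the numbers were 97 (12.3% of all) in wild type with MAFF303099, 108 (14.4%) in wild type with TONO and 96 (12.6%) in apn1 with MAFF303099. The same library also held less of the gene models silent in roots, 4.04% of counts against 7.29% to 8.77% in the other 10 dai libraries. The part of that difference in the members' levels was not tested.

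**Figure D5:**
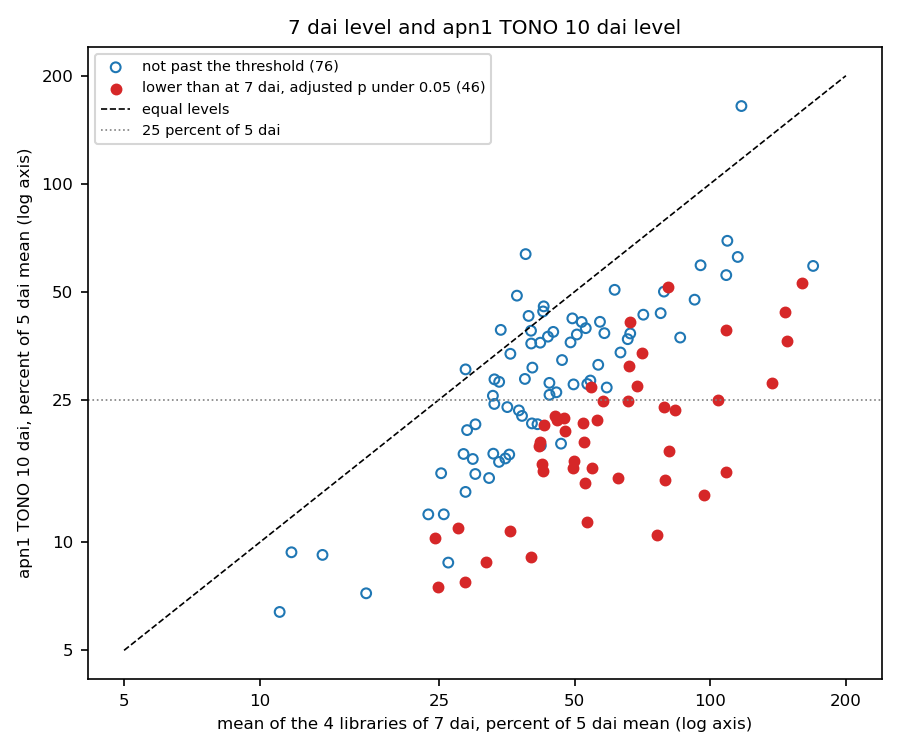
Level at 7 dai (mean of 4 libraries, horizontal) and level in apn1 TONO 10 dai (vertical), each as a percent of the 5 dai mean on log axes, for the 122 gene models. Filled points are the 46 that fell in apn1 TONO 10 dai against 7 dai, the dashed line marks equal levels, and 61 points lie at or below the dotted line at 25%.

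The gene model that kept its level best in apn1 with TONO was chr5.CM0071.1160.r2.a on chromosome 5. It had 54.1 and 35.4 CPM in the roots, 23.7, 26.8, 25.9 and 13.9 CPM at 5 dai and 31.6, 23.0, 30.5 and 20.7 CPM at 7 dai. At 10 dai it had 1.29, 2.47 and 11.2 CPM in the chosen libraries and 37.1 CPM in apn1 with TONO, which is 165% of the 5 dai mean. The difference from 7 dai was not past the threshold (log2 change 0.49 ± 0.24 SE, edgeR adjusted p = 0.253). Next was chr5.CM0200.3060.r2.m on the same chromosome, with 18.3, 18.2, 19.9 and 16.7 CPM at 5 dai and 12.7 CPM in apn1 with TONO at 10 dai, or 69.3%. In the chosen libraries it had 4.93, 3.58 and 4.29 CPM, none near the value of apn1 with TONO.

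Lowest in this library, as a share of 5 dai, were chr2.CM0021.3390.r2.m at 6.40%, with 40 counts, and LjSGA_080029.1.1 at 7.21%, with 17 counts. LjSGA_080029.1.1 was lower there, at 0.498 CPM, than in the chosen libraries, which had 1.47, 1.25 and 1.83 CPM. It had already reached 0.914, 2.13, 0.757 and 0.960 CPM at 7 dai.

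Timing at 7 dai and level in apn1 with TONO can be set side by side. The 7 earliest members kept a median of 9.23% of 5 dai in that library, with a range of 6.40% to 12.0%. The 63 between 25% and 50% kept 22.01%, the 40 between 50% and 100% kept 29.7%, and the 12 above 100% kept 48.5%. In the same order 2, 16, 21 and 7 members fell against 7 dai. These groups share the 5 dai mean as their base, so part of the order is built in.

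Genotype was then compared in the 8 libraries of 5 and 7 dai, with day and strain as additive terms. By edgeR's quasi-likelihood test over both days 0 of 122 members were called between apn1 and wild type, where 0.061% of 32806 gene models did, 0.0213% lower and 0.0396% higher in apn1. An unadjusted p under 0.05 was reached by 12 members, or 9.84%, where 6.19% of all gene models reached it, and 0 members passed with limma or DESeq2. In the 7 dai libraries alone 4 members passed, 2 in each direction, in a fit on only 4 libraries. Of all gene models 1.06% were called higher and 0.444% lower in apn1 there. In the fit of both days log2 fold changes ran from −0.55 to 0.59 with a median of −0.07, and 86 members had a value below 0. The smallest p was that of chr1.CM0316.1050.r2.d on chromosome 1. It had 25.4, 28.0, 9.03 and 11.5 CPM in wild type and 33.8, 48.1, 12.1 and 13.8 CPM in apn1, as MAFF303099 and TONO at 5 dai and then at 7 dai. It was higher in apn1 in 4 of 4 pairs, and the difference did not pass (log2 change 0.47 ± 0.11 SE, edgeR adjusted p = 0.419, and 0.0754 to 0.913 over the alternatives). Pair by pair, the members' median log2 difference was 0.04 with MAFF303099 and −0.01 with TONO at 5 dai, and −0.09 and −0.28 at 7 dai. For the other root-level gene models the medians were 0.01, −0.02, 0.01 and −0.01 in that order. Higher in apn1 were 64, 59, 46 and 24 members, and 52.7%, 46.7%, 52.1% and 47.3% of the others.

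Between the uninoculated roots of the 2 plant lines these gene models differed mostly in 1 direction, though only 1 library stands against 1. Of the 122 members 108 were higher in the wild type root, with a median log2 difference of apn1 to wild type of −0.36, against −0.02 for the other root-level gene models. Higher in the apn1 root were 11.5% of the members and 46.0% of the others. At least 2-fold lower in the apn1 root was 1 member, or 0.820%, where 1.93% of all gene models were. Members at least 2-fold higher numbered 0, where 2.4% of all were. Among the other root-level gene models 0.270% were at least 2-fold lower and 0.366% at least 2-fold higher. The rule used the mean of both roots and not their difference. Leaving out the wild type root gave 96 members, 86 of them shared with the 122, and leaving out the apn1 root gave 140, 112 of them shared.

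Strains were compared in the same fit. With TONO 2 members were higher and 1 was lower than with MAFF303099 (edgeR, adjusted p under 0.05), where 0.857% of all gene models were called in either direction, 0.393% higher and 0.463% lower. Members at an unadjusted p under 0.05 numbered 53, or 43.4%, where 16.3% of all gene models were, and 40 of the 53 were higher with TONO. Other settings gave more calls of members, 18 with DESeq2, 8 with limma, 16 in the 7 dai libraries alone and 12, 6 in each direction, in those of 5 dai alone. Over all gene models these settings called 1426, 438, 1490 and 928, against 281. The fits of a single day rested on only 4 libraries each. With the pairs matched by day and genotype as a block, an alternative chosen after seeing the data, 1 member was called, LjSGA_040777.1. In the fit of both days the median log2 fold change was 0.16, against −0.01 for all gene models and 0.03 for the other root-level gene models, and 84 members had a value above 0. Pair by pair, 83 and 71 members were higher with TONO at 5 dai in wild type and apn1, and 92 and 72 at 7 dai. Of the other root-level gene models 53.3% to 57.1% were higher with TONO in these pairs.

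Higher with TONO was chr3.CM0590.710.r2.d on chromosome 3, which had 20.3 and 25.4 CPM at 5 dai and 5.39 and 6.02 CPM at 7 dai with MAFF303099, wild type first. With TONO it had 34.4 and 30.8 CPM and then 10.2 and 10.1 CPM (log2 change 0.67 ± 0.12 SE, edgeR adjusted p = 0.0380). Also higher was chr3.CM0070.370.r2.m on the same chromosome, with 45.3, 52.2, 16.5 and 17.1 CPM with MAFF303099 and 68.7, 65.9, 29.0 and 24.6 CPM with TONO (log2 change 0.57 ± 0.10 SE, edgeR adjusted p = 0.0399). Lower with TONO was LjSGA_040777.1, whose values are given above (log2 change −1.25 ± 0.19 SE, edgeR adjusted p = 0.0297). Each went the same way in 4 of 4 pairs, and on either day the libraries of the strains did not overlap. With 2.74 and 3.49 CPM at 5 dai with MAFF303099 against 11.5 and 9.96 CPM with TONO, LjSGA_080029.1.1 had a larger fold and just missed (log2 change 1.38 ± 0.27 SE, edgeR adjusted p = 0.0501).

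The calls depended on single libraries, while the folds moved less. No member was called without wild type with MAFF303099 at 5 or 7 dai, wild type with TONO at 5 dai or apn1 with MAFF303099 at 5 dai. Without wild type with TONO, apn1 with MAFF303099 or apn1 with TONO at 7 dai 1 member was called each, of which 0, 1 and 0 were among the 3 above, and without apn1 with TONO at 5 dai 3 were, 2 of them among those. Over these leave-outs the log2 changes ran from 0.61 to 0.78 for chr3.CM0590.710.r2.d, from 0.48 to 0.65 for chr3.CM0070.370.r2.m and from −1.43 to −1.06 for LjSGA_040777.1. Over 16 alternatives adjusted p-values ran from 0.000275 to 0.167 for chr3.CM0590.710.r2.d, from 0.0005 to 0.189 for chr3.CM0070.370.r2.m and from 6.76e-09 to 0.0877 for LjSGA_040777.1, and no direction changed.

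The strain difference followed the timing at 7 dai. All 7 members at or below 25% of 5 dai at 7 dai had a higher fitted level with TONO, with a median log2 fold change of 0.56. Of the 63 between 25% and 50%, 53 were higher with TONO (median 0.28), and of the 40 between 50% and 100%, 24 were (median 0.04). All 12 above 100% had a lower fitted level with TONO, with a median of −0.41 and a range of −1.25 to −0.08. The same order appeared outside the members. Among the other root-level gene models the median was 0.96 for the 5 at or below 25%, 0.30 for the 99 between 25% and 50%, 0.07 for 5295 between 50% and 100% and −0.02 for 4982 above 100%. The timing and strain values come from the same 8 libraries, so this order is a description.

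The members were spread over all 6 chromosomes, with 19 on chromosome 1, 10 each on chromosomes 2 and 3, 13 on chromosome 4, 14 on chromosome 5 and 9 on chromosome 6. Chromosome 5 held 11.5% of the members and 9.14% of the other root-level gene models, and chromosome 3 held 8.2% and 10.7%. LjSGA models without a chromosome were 34.4% of the members and 32.2% of the others. Contigs with more than 1 member numbered 10 and held 21 members. A model number was read for 80 members. Their nearest models by number on the same contig, members left out, numbered 152. Among these neighbours 43 met the root and 5 dai criteria, and their median level in the 3 chosen libraries of 10 dai was 90.4% of 5 dai. At or below 50% were 7 of the 43, or 16.3%, against 6.86% of the other root-level gene models.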

How the data were processed

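RNA of 14 libraries was depleted of ribosomal RNA and made into ScriptSeq version 2 libraries, per the labels' protocols. The authors deposited 12 tables, each with original read counts per gene model for 1 nodule library and its root, per the file headers. Bowtie2 2.0.2 and DESeq were used, per the submitters' processing notes. Nothing used here states the build, annotation, counting tool or strand use. Overlapping or near-identical models may share reads. The normalized columns were not used. Root counts were identical in their 6 tables, and 0 columns were left unmapped.

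CPM used TMM factors over 14 libraries. Gene models with a mean scaled count of at least 10 were tested with edgeR 4.0.16 (R 4.3.3), p-values adjusted over all of them. The 5 and 7 dai fit left 4 residual degrees of freedom and the 10 against 7 dai fit 3. Fits of 5 or 7 dai alone used the 4 libraries of that day and left fewer, so their calls are less certain. SE is the fold change over the square root of F. Log2 ratios of 1 library to 1 add 0.1 CPM. Alternatives used limma 3.58.1 and DESeq2 1.42.0. The fits were tested on simulated data. Figures used Python 3.11.15 and matplotlib 3.10.9.

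With no replicate library, p-values measure what the additive terms leave over. A count of 0 allows 3 counts, 0.0462 to 0.111 CPM per library, for counting error only. The members and lists were chosen with earlier results of these data known. Gene models were named by a rule. It took the 2 highest in root level and the 2 with the deepest loss. From timing and from level in apn1 with TONO it took the 2 at each end. Also named were the 2 nearest the limit on either side and the members of the contig with most of them. Each test gave its extremes, or the smallest p where none passed. LjSGA_080029.1.1 is also named beside the strain test, chosen there after its values were seen.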

Additional observations from a re-analysis of the deposited data

How the results depend on the processing

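The number of members, 122, was 184 and 67 with a root minimum of 5 and 20 CPM, 219 and 21 with 10 dai at most 1 part in 3 and 1 part in 8, and 76 with each of the 3 libraries of 10 dai at most 25%. With the mean of all 4 libraries of 10 dai the number was 86, of which 85 were among the 122. With 5 dai within 1.5-fold of the root mean the number was 82. It was 96 to 140 without each of the 9 libraries used by the rule in turn (those of 7 dai and apn1 with TONO at 10 dai were not left out for these 3 results). The median level at 7 dai, 46.2% of 5 dai, was 55.7% with the limit at 1 part in 3 and 44.6% to 52.0% without each of the 9, against an SD of 5.12 percentage points over the 4 libraries of 7 dai. The level in apn1 with TONO at 10 dai, 24.9%, was 34.2% and 14.9% with limits of 1 part in 3 and 1 part in 8, and 24.3% to 28.1% without each of the 9. Calls of members between genotypes, 0, were 4 in 7 dai libraries alone. Calls between strains, 3, were 18 with DESeq2, 8 with limma, 7 without a count filter, 16 at 7 dai alone and 12 at 5 dai alone, 1 with the pairs matched by day and genotype as a block (chosen after seeing the data), and 0 to 3 without each library. Members past the threshold in apn1 with TONO at 10 dai against 7 dai, 46, were 28 with limma and 32 to 50 without each library of 7 dai, and all 46 were among those called with upper-quartile scaling and with DESeq2. Over all gene models DESeq2 called 134 against 20 between genotypes, 1426 against 281 between strains and 4351 against 2870 for 10 against 7 dai, and limma 438 between strains; with the matched pairs as a block 84 were called between strains. At 7 dai alone 492 and 1490 were called between genotypes and strains, and at 5 dai alone 40 and 928. Without single libraries the ranges were 11 to 19, 15 to 163 and 1474 to 3182. No result changed direction. The causes were not tested. The apn1 TONO library of 10 dai cannot be left out of its own test. The members' median log2 fold change in that test, −0.95, was −0.811 against only the apn1 libraries of 7 dai. It was −1.002 against only the TONO libraries of 7 dai, where the calls of members were mostly, but not only, lower. No paired analysis by replicate number was possible because each condition has 1 library. At 5 and 7 dai conditions were matched by the additive terms, and by the blocks of matched pairs, which called 0 members between genotypes. At 10 dai depth was lowest, and members there had as few as 2 counts, so the deepest losses are the least precise.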
